A study of Mus musculus with 4 samples.

Results

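Border-associated macrophages are the macrophages of the meninges, the perivascular spaces and the choroid plexus, and 8 genes that mark them in the mouse (Mrc1, Pf4, Lyve1, Cd163, Ms4a7, F13a1, Cbr2 and Stab1) were followed through RNA sequencing libraries labelled as cortical microglia. The genes were chosen by name, as the rows of the deposited tables that carry these symbols, and were 8 of 21981 genes in any table. Each was present in all 4 tables, and all 8 were among the 15951 genes that passed the filter on low counts. The libraries were made from total RNA of untreated cells of the embryonic mouse cerebral cortex at E16, a day late in gestation. The 2 Bach1 conditional knockout libraries (cKO 2 and cKO 5) came from Bach1 cKO animals, which the design text names Bach1cKO-Cx3 without spelling out the driver, and the 2 control libraries (control 1 and control 6) came from Bach1 fl/fl animals. The labels do not say whether the libraries stem from separate animals or pools, so p-values measure only the spread between these 4 samples. The sources used here do not say how the cells were isolated, and the series' design text states more libraries per genotype than the 2 analysed here.

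Border-associated macrophages and microglia both arise from yolk sac progenitors, but border macrophages line the interfaces of the brain and are rich in scavenger and endocytic receptors, while microglia settle in the parenchyma. Both express the fractalkine receptor gene Cx3cr1 during development. Mrc1, Lyve1 and Cd163 are used to tell border macrophages from microglia, although Lyve1 and Stab1 are also expressed by some endothelia, Pf4 by platelets and F13a1 by monocytes. In bulk RNA, fewer cells of a type and less RNA per cell cannot be told apart.

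Library totals ran from 17233115 to 19305078 reads, and 3 reads corresponded to 0.155 to 0.174 CPM (reads scaled to the library total), which covers counting error only. The 16 microglial genes of the marker list had reads in every library, including the defining genes P2ry12, Tmem119 and Sall1, with summed values of 5889 and 18993 CPM in the cKO libraries and 17577 and 24956 CPM in the controls. Cortical neuron genes, which the label does not name, summed to 4279 and 346 CPM in cKO 2 and cKO 5, and to 1247 and 381 CPM in controls 1 and 6. Bach1, which encodes a heme-regulated transcriptional repressor, had 29.98 and 35.4 CPM in the cKO libraries and 45.8 and 21.6 CPM in the controls. A count over the whole gene includes exons outside a floxed part, so it does not check the genotype labels.

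All 8 genes had their highest value in cKO 5, and 7 of them had values below both controls in cKO 2 on the normalised scale, so the genotypes overlapped for each gene. Levels of different genes were compared as reads per kilobase of annotated exon, scaled to the library total (RPKM). Stab1 averaged 76.9 RPKM over the 4 libraries and Mrc1 32.4 RPKM, and in each library Stab1 stood above Mrc1 and Mrc1 above the remaining 6 genes. Pf4 (7.97 RPKM), Cbr2 (7.45 RPKM) and F13a1 (6.77 RPKM) followed, and their order changed from library to library. Ms4a7 averaged 4.58 RPKM, Lyve1 2.65 RPKM and Cd163 0.802 RPKM. The 8 genes summed to 54.7 RPKM in cKO 2 and 241 RPKM in cKO 5, against 116 RPKM in control 1 and 146 RPKM in control 6. Stab1 alone made up 48.5% and 51.5% of that sum in the cKO libraries and 58.6% and 60.9% in the controls.

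**Figure D1:**
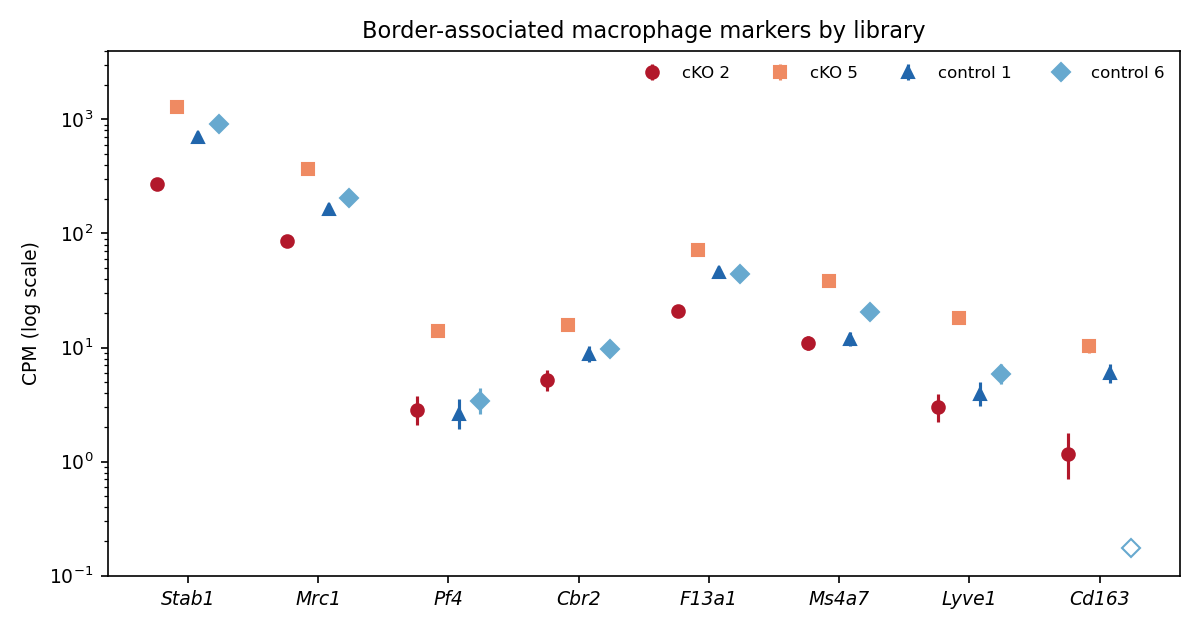
CPM of the 8 marker genes (log axis) in cKO 2, cKO 5, control 1 and control 6, ordered by mean RPKM; bars are 95% Poisson counting intervals, and the open symbol marks a count of 0 drawn at the level of 3 reads. The cKO 5 value is the highest for every gene, and Cd163 has no reads in control 6.

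Of the 4 receptor genes, Stab1 and Mrc1 were the most abundant members and Lyve1 and Cd163 the least. Stab1 (ENSMUSG00000042286, chromosome 14, 31139013 to 31168641, minus strand, GRCm38) encodes stabilin-1, a receptor that clears modified proteins and matrix fragments. It had 273 CPM in library cKO 2 and 1277 CPM in cKO 5, against 699 CPM in control 1 and 917 CPM in control 6. The cKO libraries thus lay on either side of both controls, and the cKO 5 value was 4.68 times that of cKO 2. The log2 fold change of cKO over control was −0.04 ± 0.93 (SE). Of its 10288 exonic bases, 112 overlap the gene Nt5dc2 on the other strand, and reads there cannot be assigned without strand information.

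Mrc1 (ENSMUSG00000026712, chromosome 2, 14229392 to 14332057, plus strand) encodes the macrophage mannose receptor CD206. Its values were 85.9 CPM in library cKO 2 and 370.3 CPM in cKO 5, against 165 CPM in control 1 and 204 CPM in control 6. The same arrangement held as for Stab1, with a log2 fold change of 0.32 ± 0.85 (SE) and means of 228 ± 201 CPM in cKO and 185 ± 26.9 CPM in control (SD, n = 2 each). Lyve1 (ENSMUSG00000030787, chromosome 7, 110850607 to 110863239, minus strand) encodes a hyaluronan receptor of border macrophages and lymphatic vessels. It had 3.004 CPM in library cKO 2 and 18.1 CPM in cKO 5, against 3.95 CPM in control 1 and 5.86 CPM in control 6. The cKO 5 value was 6.04 times that of cKO 2 and 3.09 times that of the higher control. Its log2 fold change was 1.13 ± 1.08 (SE).

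Cd163 (ENSMUSG00000008845, chromosome 6, 124304656 to 124330527, plus strand), the gene of the receptor that takes up haemoglobin bound to haptoglobin, was the one member whose values did not follow the others. It had 20 reads (1.16 CPM) in cKO 2 and 201 reads (10.4 CPM) in cKO 5, against 104 reads (5.95 CPM) in control 1 and no read in control 6. With 3 reads as the floor for control 6, Cd163 was at least 59.8-fold higher in cKO 5 and at least 6.64-fold higher in cKO 2 than in that library. At the proportion of Cd163 to Mrc1 reads found in control 1, control 6 would have held 126 reads of Cd163. The fitted log2 fold change over both genotypes was 1.09 ± 2.27 (SE), and without control 6 it was 0.10. This gene and Xist were the 2 genes with under 20 reads in control 6 among 9687 genes that had at least 100 reads in both cKO 5 and control 1 (this set was chosen after the values were seen). Xist, the RNA of the inactive X chromosome, had 5307 reads in cKO 5 and 3160 reads in control 1, and none in cKO 2 or control 6.

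Pf4 and F13a1 behaved unequally. Pf4 (ENSMUSG00000029373, chromosome 5, 90772435 to 90773383, plus strand), which encodes the chemokine platelet factor 4 (CXCL4), had 2.83 CPM in library cKO 2 and 14.1 CPM in cKO 5, against 2.63 CPM in control 1 and 3.42 CPM in control 6. On the CPM scale cKO 2 lay between the controls, and after TMM scaling (edgeR's correction for library composition) it lay just below both. The cKO 5 value stood apart, at 5.35 times control 1 and 4.12 times control 6. These ratios rest on 49 and 272 reads in the cKO libraries and 46 and 59 reads in the controls. The log2 fold change was 1.50 ± 1.04 (SE), the largest of the 8, and by edgeR its unadjusted p was 0.218. F13a1 (ENSMUSG00000039109, chromosome 13, 36867178 to 37050244, minus strand), which encodes the catalytic subunit of coagulation factor XIII, had 21.0 CPM in library cKO 2 and 71.4 CPM in cKO 5, against 45.6 CPM in control 1 and 44.5 CPM in control 6. The controls were close together (45.0 ± 0.742 CPM, SD, n = 2), the cKO libraries were not (46.2 ± 35.6 CPM, SD, n = 2), and the log2 fold change was 0.05 ± 0.74 (SE). An antisense gene, Gm30489, shares 74 bases with its exons.

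Ms4a7 (ENSMUSG00000024672, chromosome 19, 11321039 to 11336146, minus strand) encodes a membrane protein with several transmembrane passes that sets border macrophages apart from most microglia. It had 10.98 CPM in library cKO 2 and 38.3 CPM in cKO 5, against 11.8 CPM in control 1 and 20.5 CPM in control 6. Here cKO 2 was close to control 1, and the log2 fold change was 0.60 ± 0.84 (SE). Cbr2 (ENSMUSG00000025150, chromosome 11, 120729489 to 120732114, minus strand) encodes a carbonyl reductase. Its values were 5.20 CPM in library cKO 2 and 15.8 CPM in cKO 5, against 8.76 CPM in control 1 and 9.81 CPM in control 6, with a log2 fold change of 0.18 ± 0.78 (SE). Its range was the narrowest of the 8, with cKO 5 at 3.04 times cKO 2.

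No member passed the threshold in the comparison of genotypes. With edgeR's quasi-likelihood test and Benjamini-Hochberg adjustment over 15951 genes, the adjusted p was 0.9997 for each of the 8 genes. Over all genes, 0.0% were past an adjusted p of 0.05 as higher and 0.0% as lower, and 49 genes had an unadjusted p under 0.05 (74 with DESeq2 and 37 with limma-voom, which also gave 0 genes after adjustment). That is 0.307% of genes, and 0 of the 8 members. Fold changes were above 0 for 7 of 8 members, beside 52.8% of all genes, with a median log2 fold change of 0.46 beside 0.03 over all genes. With limma-voom 4 of 8 were above 0, with a median of 0.10 beside −0.03, and with scaling on macrophage genes 8 of 8, with a median of 0.57 below the 1.00 of all genes. Both cKO libraries stood above both controls for 0 of 8 members, beside 8.33% of all genes, and below both for 0 of 8, beside 7.64%. The value in cKO 5 was the highest of the 4 for 8 of 8 members, where this held for 25.8% of all genes. For 7 of 8 members cKO 5 stood above and cKO 2 below both controls, an arrangement found for 16.5% of all genes.

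The direction depended on which cKO library was in the fit. Without cKO 5 the fold changes of all 8 members were negative, with a median log2 fold change of −1.22. Of these, Mrc1 (−1.36), F13a1 (−1.35) and Stab1 (−1.83) had an unadjusted p under 0.05 in edgeR as lower, beside 5.49% of all genes (10.5% in either direction), and 0 of 8 as higher, beside 4.98%. Without cKO 2 all 8 were positive, with a median of 1.22. Pf4 (2.31), Lyve1 (1.98), Ms4a7 (1.33) and Mrc1 (1.10) then had an unadjusted p under 0.05 as higher, beside 0.414% of all genes (3.49% in either direction), and 0 of 8 as lower, beside 3.08%. In neither fit was a gene past the adjusted threshold. In both fits 1 library stood for the cKO genotype and was assumed to vary like the controls.

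**Figure D2:**
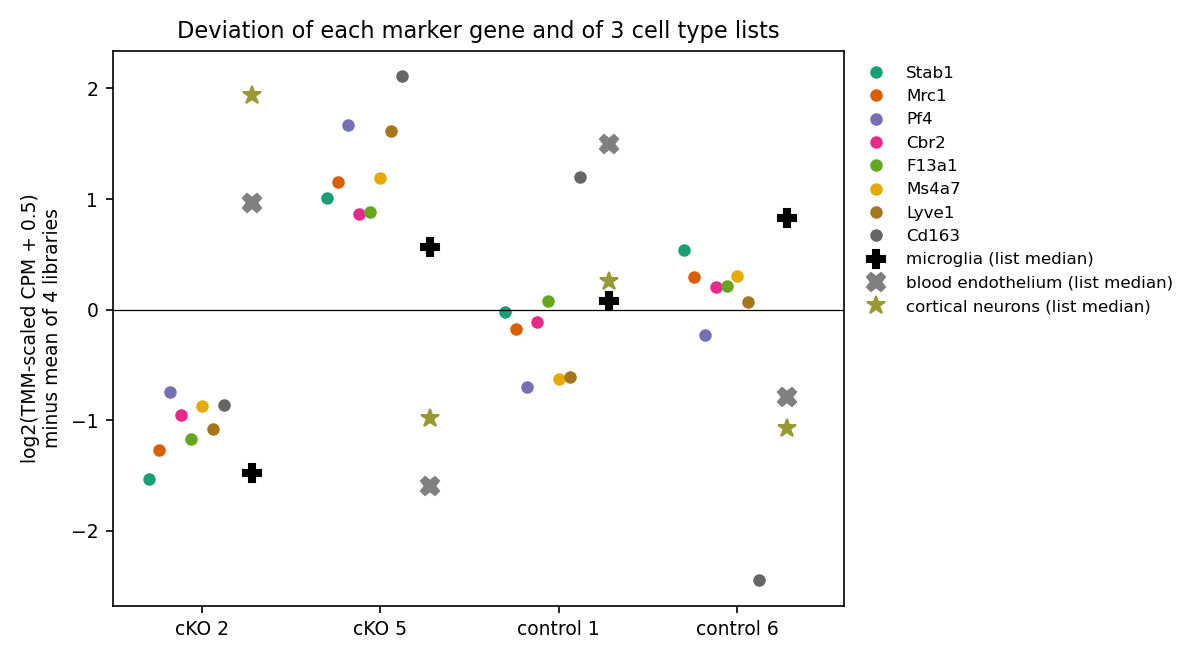
Log2(TMM-scaled CPM + 0.5) minus the mean of the 4 libraries (vertical axis), for each of the 8 marker genes (dots) and as the median of the microglia, blood endothelium and cortical neuron lists, in cKO 2, cKO 5, control 1 and control 6. The marker genes are low in cKO 2 and high in cKO 5; the microglia median is highest in control 6 (0.83) and the neuron median in cKO 2 (1.94).

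The authors' deposited table for each pair of libraries gives the same genes as single comparisons, which share libraries with each other and have no replicates. For cKO 2 against control 1, the authors' deposited table called Stab1, F13a1 and Cd163 lower, 3 of 8 members beside 11.6% of all its genes, with a member median log2 fold change of −0.85 beside 0.17 for all genes. For cKO 2 against control 6, the authors' deposited table called Stab1, Mrc1 and F13a1 lower (3 of 8, beside 13.4%) and Cd163 higher (beside 33.7%), with a member median of −0.94 beside 0.46. For cKO 5 against control 1, the authors' deposited table called Mrc1, Ms4a7, Lyve1 and Pf4 higher, 4 of 8 members beside 8.79%, with a member median of 1.02 beside −0.19. For cKO 5 against control 6, the authors' deposited table called Lyve1, Pf4 and Cd163 higher, 3 of 8 beside 9.23%, with a member median of 0.88 beside −0.03. No member was called lower in the comparisons with cKO 5, where 26.0% and 11.4% of all genes were, in the authors' deposited tables for control 1 and control 6. The value of 8.49 that the authors' deposited table gives for Cd163 in cKO 5 against control 6 was computed with a count of 0 set to 0.5 reads.

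The content of microglial RNA differed between libraries, so the marker genes were also set against microglial genes within each library, which needs no scaling between libraries. The summed CPM of the 8 genes was 403 and 1815 in the cKO libraries and 943 and 1205 in the controls. As a share of the summed CPM of the 16 microglial genes, this came to 6.84% in cKO 2 and 9.56% in cKO 5, against 5.37% in control 1 and 4.83% in control 6. Both cKO libraries were thus above both controls, with a difference of 0.67 in the mean log2 ratio and a pooled SD within genotypes of 0.253. The ratio was higher in both cKO libraries for 7 of 8 members, all but Cd163, but this also held for 28.5% of all genes. It was lower in both cKO libraries for 0 of 8, beside 0.746% of all genes. For Pf4 the log2 ratio was −11.02 and −10.4 in the cKO libraries and −12.7 and −12.8 in the controls, the widest separation of the 7. An exact permutation of 2 against 2 libraries cannot give a two-sided p under 0.333, and no other test of a single ratio was run.

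With 18 genes of all macrophages, among them Csf1r, Ptprc and C1qa, as the denominator, the difference was smaller, at 0.30, and the summed ratios of cKO 2 and control 1 were nearly equal (−4.35 each). Mrc1, Pf4, Lyve1, Ms4a7 and Cbr2 each had a higher ratio in both cKO libraries on that scale, 5 of 8 members beside 6.51% of all genes, and 0 of 8 had a lower one in both, beside 1.66%. Cx3cr1 is on the microglial list only, and had 747 and 2756 CPM in the cKO libraries and 4333 and 5158 CPM in the controls. Leaving Cx3cr1 and Sparc, a gene shared with vessels, out of the microglial list (chosen after the data were seen) gave a difference of 0.54.

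**Figure D3:**
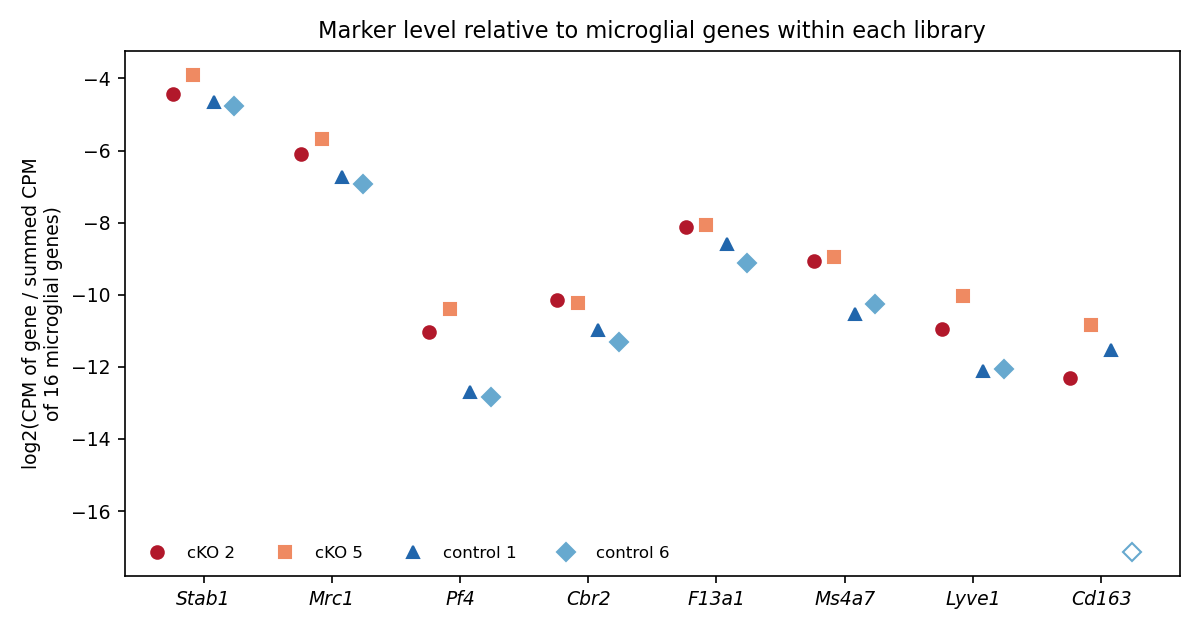
Log2 ratio of the CPM of each marker gene to the summed CPM of 16 microglial genes in the same library, for cKO 2, cKO 5, control 1 and control 6; the open symbol is Cd163 in control 6, drawn at 3 reads. Both cKO symbols lie above both control symbols for every gene but Cd163.

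The proportions among the markers were also compared, as reads per 100 reads of Mrc1 in the same library. Pf4 had 3.30 and 3.80 reads per 100 Mrc1 reads in cKO 2 and cKO 5, against 1.59 and 1.68 in control 1 and control 6. The 95% Wilson intervals of the cKO libraries (2.48 to 4.38 and 3.37 to 4.29) lay above those of the controls (1.19 to 2.13 and 1.30 to 2.17), and such intervals cover counting error only. Lyve1 had 3.50 and 4.90 reads per 100 Mrc1 reads in the cKO libraries and 2.39 and 2.88 in the controls, with overlapping intervals for cKO 2 and both controls. Ms4a7 had 12.8 and 10.4 in the cKO libraries and 7.16 and 10.1 in the controls, and the intervals of cKO 5 and control 6 overlapped. Stab1 went the other way, with 317 and 345 reads per 100 Mrc1 reads in the cKO libraries and 423 and 451 in the controls. Cbr2, with 6.05 and 4.27 in the cKO libraries and 5.29 and 4.82 in the controls, and F13a1, with 24.5 and 19.3 in the cKO libraries and 27.5 and 21.9 in the controls, overlapped between genotypes. Thus 3 of 7 genes had a higher proportion to Mrc1 in both cKO libraries, beside 1.57% of all genes, and 1 of 7 a lower one, beside 6.6%. These proportions were examined with the values known and share the Mrc1 counts.

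**Figure D4:**
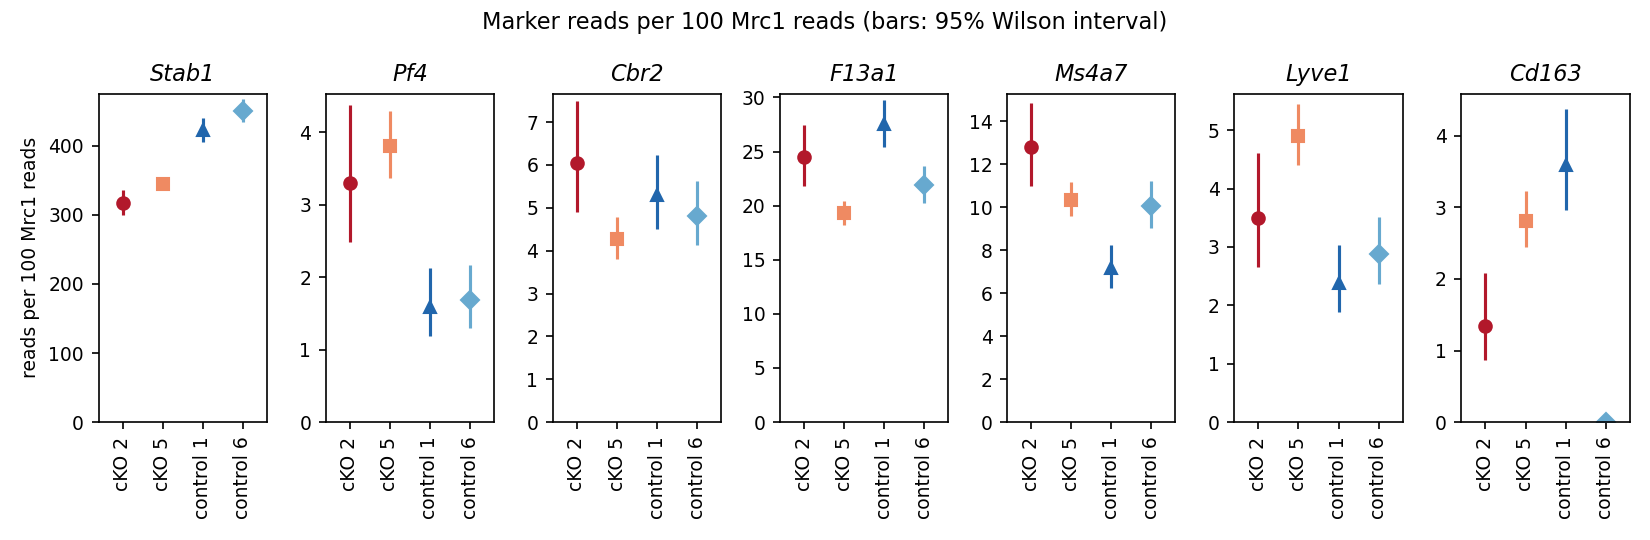
Reads of each of the other 7 marker genes per 100 Mrc1 reads of the same library, in cKO 2, cKO 5, control 1 and control 6; bars are derived from 95% Wilson intervals of the gene's share of its own plus Mrc1 reads, and each panel starts at 0. Pf4 is at 3.30 and 3.80 in the cKO libraries against 1.59 and 1.68 in the controls, and Stab1 is lower in both cKO libraries.

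The promoters of the members were read from RefSeq sequences (GRCm38.p6), which held 9 windows for 7 of the 8 genes, each from 250 bases before to 50 bases after an annotated start. They are shown because the members shared an arrangement over the libraries and the deleted factor, BACH1, pairs with small MAF proteins at antioxidant response elements. Motifs were searched on both strands as TGACNNNGC (the antioxidant response element core), TGCTGA (an arm of the MAF recognition element), GAGGAAGT (a purine-rich ETS site of the kind bound by PU.1, the lineage factor of macrophages) and TGANTCA (the AP-1 site). TGACNNNGC was in 0 of 9 member windows and in 12.4% of 32851 windows of all genes. TGCTGA was in the windows of Cbr2 and Stab1, 2 of 9 beside 19.5%. GAGGAAGT was in those of Pf4 and F13a1, 2 of 9 beside 3.20%, and TGANTCA in that of Ms4a7, 1 of 9 beside 7.81%. Windows are printed for Stab1, the most abundant member, for Pf4, with the largest fold change of cKO over control, for Cbr2, with the smallest ratio of cKO 5 to cKO 2, and for Cd163, whose values did not follow the others. They are given 5′ to 3′ along the gene's strand, with matches in capitals. They lie at chr14:31168592-31168891 (Stab1, minus strand), chr5:90772185-90772484 (Pf4, plus strand), chr11:120731972-120732271 (Cbr2, minus strand) and chr6:124304401-124304700 (Cd163, plus strand, no match).
Stab1: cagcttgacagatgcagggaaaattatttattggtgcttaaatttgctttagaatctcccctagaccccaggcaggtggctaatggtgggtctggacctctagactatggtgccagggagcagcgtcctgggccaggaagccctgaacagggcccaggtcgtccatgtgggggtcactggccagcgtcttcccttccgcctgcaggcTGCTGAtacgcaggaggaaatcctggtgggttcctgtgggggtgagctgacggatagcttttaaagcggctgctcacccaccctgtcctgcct
Pf4: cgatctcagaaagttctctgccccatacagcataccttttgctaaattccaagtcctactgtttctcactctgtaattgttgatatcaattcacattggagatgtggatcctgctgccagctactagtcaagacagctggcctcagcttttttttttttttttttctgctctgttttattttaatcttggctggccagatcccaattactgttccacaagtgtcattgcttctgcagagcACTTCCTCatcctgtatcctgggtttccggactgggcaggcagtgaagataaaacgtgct
Cbr2: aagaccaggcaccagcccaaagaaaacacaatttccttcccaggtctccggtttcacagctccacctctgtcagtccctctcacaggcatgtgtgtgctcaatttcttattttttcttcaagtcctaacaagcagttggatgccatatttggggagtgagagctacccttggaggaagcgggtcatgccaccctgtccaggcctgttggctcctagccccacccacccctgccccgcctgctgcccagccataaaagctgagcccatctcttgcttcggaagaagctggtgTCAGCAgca
Cd163: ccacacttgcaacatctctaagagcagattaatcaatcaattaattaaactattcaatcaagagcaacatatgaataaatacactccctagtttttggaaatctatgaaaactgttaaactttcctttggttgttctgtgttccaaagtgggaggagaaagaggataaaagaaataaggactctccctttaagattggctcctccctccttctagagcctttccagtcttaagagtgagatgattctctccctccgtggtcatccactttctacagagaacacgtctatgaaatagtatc
A match is a description of these letters and not a site of binding, and a window without a match says nothing about a factor.

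Other genes known from border macrophages were less uniform than the 8 members. Of 20 listed genes, 17 were tested; 0 passed the adjusted threshold in edgeR in either direction, 8 had positive and 9 negative fold changes, and the median log2 fold change was −0.05. Nevertheless 14 of 17 had their highest value in cKO 5 (25.8% of all genes), and for 12 of 17 cKO 5 stood above and cKO 2 below both controls (16.5% of all genes). Gas6, the gene of a ligand for receptors that recognise dying cells, had 229 CPM in library cKO 2 and 700.1 CPM in cKO 5, with 449 and 596 CPM in the controls. Hpgd, a prostaglandin-degrading enzyme gene, had 88.4 and 454 CPM in the cKO libraries and 244 and 343 CPM in the controls, and Maf, a transcription factor gene of macrophages, had 78.3 and 417 CPM in the cKO libraries and 231 and 358 CPM in the controls. Dab2, an endocytic adaptor gene, had 194 and 469 CPM in the cKO libraries and 329 and 395 CPM in the controls. Ccr1, a chemokine receptor gene, had 31.9 and 178 CPM in the cKO libraries and 91.4 and 153 CPM in the controls. Ednrb, an endothelin receptor gene, was the exception among the 6 most abundant, with 206 and 83.8 CPM in the cKO libraries and 101 and 74.3 CPM in the controls.

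Ms4a7 belongs to a gene cluster, and most of its relatives were also highest in cKO 5. Of 8 other Ms4a genes tested, 7 had positive fold changes, 0 passed the adjusted threshold (edgeR), and 7 had their highest value in cKO 5 (25.8% of all genes). Ms4a6d had 134 and 510.3 CPM in the cKO libraries and 214 and 353 CPM in the controls. Ms4a6b had 37.5 and 138 CPM in the cKO libraries and 60.3 and 110.3 CPM in the controls, and Ms4a6c 21.4 and 94.8 CPM in the cKO libraries and 35.9 and 41.9 CPM in the controls. Ms4a4a had 7.91 and 31.96 CPM in the cKO libraries and 11.8 and 19.0 CPM in the controls. These genes are related, and the sources used here do not say how reads that match several of them were counted. The 2 least abundant of the 6 named were Ms4a4c, at 1.91 and 10.2 CPM in the cKO libraries and 3.26 and 6.67 CPM in the controls, and Ms4a8a, at 0.693 and 4.09 CPM in the cKO libraries and 0.572 and 1.39 CPM in the controls.

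Further scavenger and endocytic receptor genes, 16 tested of 20 listed, had 9 positive and 7 negative fold changes, a median of 0.07 and 0 genes past the adjusted threshold (edgeR). Of the 16, 10 had their highest value in cKO 5 (25.8% of all genes), and for 9 cKO 5 stood above and cKO 2 below both controls (16.5% of all genes). Fcgrt, the neonatal Fc receptor gene, had 363 and 947 CPM in the cKO libraries and 792 and 972 CPM in the controls. Lrp1, a large endocytic receptor gene, had 290.3 and 1059 CPM in the cKO libraries and 614 and 939.8 CPM in the controls, and Cd68, a lysosomal macrophage gene, had 199 and 743 CPM in the cKO libraries and 404 and 667 CPM in the controls. Scarb2 had 195 and 431 CPM in the cKO libraries and 358 and 392 CPM in the controls, while Scarb1 ranged less, with 188 and 256 CPM in the cKO libraries and 288 and 257 CPM in the controls. Cd93, which endothelium also expresses, had 122 and 18.9 CPM in the cKO libraries and 178 and 36.8 CPM in the controls. Unlike the members, it was lowest in cKO 5.

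Genes of other cells that could supply the markers were measured beside them. The value in cKO 5 was the highest for 7 of 18 genes of all macrophages and 2 of 16 microglial genes. It was so for 8 of 8 members, and for 25.8% of all genes. For 7 of the 18 and 2 of the 16, cKO 5 stood above and cKO 2 below both controls (7 of 8 members, 16.5% of all genes). In cKO 2 the median log2 deviation from the mean over libraries was −1.43 and −1.48 for these lists and −1.01 for the members. Low values in cKO 2 were thus not particular to the members. Platelet and megakaryocyte genes, relevant to Pf4, summed to 28.1 and 25.8 CPM in the cKO libraries and 44.1 and 20.9 CPM in the controls over 10 genes with counts in all libraries. Ppbp, the chemokine gene beside Pf4 in platelets, had 6 reads in cKO 2 and none in cKO 5, against 6 and 3 reads in the controls, and Gp5, a platelet glycoprotein gene, also had no reads in cKO 5. In cKO 5, 3 of the 10 genes had no reads, and all others had reads in every library. Among those of low abundance, Gp1bb, Treml1, Gp9 and Gp1ba had 20, 19, 15 and 9 reads in cKO 5. Thbs1, the thrombospondin-1 gene, which other cells also express, had 12.1 and 18.1 CPM in the cKO libraries and 18.9 and 12.4 CPM in the controls. Clec1b, a platelet receptor gene, had 5.72 and 3.06 CPM in the cKO libraries and 9.16 and 2.15 CPM in the controls, and Itga2b, a platelet integrin gene, had 3.12 and 1.40 CPM in the cKO libraries and 5.84 and 0.754 CPM in the controls. Blood endothelial genes, relevant to Stab1, summed to 2752 and 367 CPM in the cKO libraries and 3568 and 662 CPM in the controls, lowest in cKO 5. Lymphatic endothelial genes, relevant to Lyve1, summed over 5 genes to 82.9 and 20.7 CPM in the cKO libraries. In the controls this sum was 68.2 and 31.1 CPM. Flt4 had 2.28 CPM in cKO 5. Prox1 had 25.4 and 14.6 CPM in the cKO libraries and 22.7 and 20.2 CPM in the controls. The cKO 5 sum was thus mostly Prox1. Reln, also in this sum, was highest in cKO 2 (20.4 CPM), as the cortical neuron sum was. Whether Prox1 and Reln reads came from cells other than lymphatic endothelium was not tested. The blood and lymphatic endothelial sums were lowest in cKO 5, where Stab1 and Lyve1 had their highest values. Whether these cells supplied Stab1 or Lyve1 reads was not tested.

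Monocyte and neutrophil genes, relevant to F13a1, had their highest sum in cKO 5 and their lowest in cKO 2, as the members had, with summed values of 91.0 and 201 CPM in the cKO libraries and 139 CPM in each control over 12 genes. The highest value was in cKO 5 for 8 of these 12 (25.8% of all genes). Itgal, the most abundant, had 8.84 and 66.9 CPM in the cKO libraries and 33.1 and 37.7 CPM in the controls. Vcan went the other way, with 43.2 and 7.20 CPM in the cKO libraries and 24.6 and 3.71 CPM in the controls. It is a large part of the cKO 2 sum and adds more to control 1 than to control 6. Mpo, a granule enzyme gene, had 94 reads in cKO 5 and none in cKO 2, against 27 reads in control 1 and none in control 6. Pericyte and meningeal fibroblast genes summed to 3515 and 280.4 CPM in the cKO libraries and 3877 and 749.7 CPM in the controls. Rgs5, a pericyte gene, led this sum with 2487 and 190 CPM in the cKO libraries and 2669 and 525 CPM in the controls. The sum therefore mostly follows Rgs5 and does not measure meningeal fibroblasts alone. Of the fibroblast genes, Col3a1 had 59.8 and 4.87 CPM in the cKO libraries and 69.7 and 9.86 CPM in the controls. Col1a2 had 30.2 and 2.23 CPM in the cKO libraries and 37.1 and 4.99 CPM in the controls. Both were lowest in cKO 5, whereas Dcn was lowest in control 6, where it had no reads. Erythroid genes summed to 220.2 and 113 CPM in the cKO libraries and 308 and 111 CPM in the controls, and radial glia genes to 960.2 and 163 CPM in the cKO libraries and 503 and 179.7 CPM in the controls. The part that differing content of these cell types has in the marker values was not tested.

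The genes closest to the mean profile of the 8 members were sought among 10691 other genes with a mean of at least 5 CPM, by the root mean square distance of the centred log2 values over the 4 libraries. Among the closest were Stfa1 (0.125), Siglec1 (0.128), Susd1 (0.139), Ell2 (0.142) and Ms4a6c (0.153). Siglec1, the sialoadhesin gene of border and other tissue macrophages, had 1.85 and 11.9 CPM in the cKO libraries and 4.69 and 3.66 CPM in the controls. Stfa1, a stefin gene, had 3.24 and 13.6 CPM in the cKO libraries and 6.35 and 6.09 CPM in the controls. The members themselves lay between 0.252 (Mrc1) and 0.440 (Stab1) from their mean, apart from Cd163 at 1.40. Both the distances and the closest genes depended on the Cd163 count of 0 in control 6. With Cd163 left out of the mean profile (chosen after the data were seen), its value in control 6 was 0.20 in place of −0.13, and Mrc1 lay at 0.124 from it. Of the 6 closest genes, 1 was then shared, Ms4a6c at 0.0700, with Pxdc1 (0.0323) the closest of all, Ms4a4a at 0.124, and Siglec1 at 0.277. Among pairs of members, F13a1 and Cbr2 were closest (0.145), followed by Mrc1 and F13a1 (0.194), Mrc1 and Stab1 (0.208), Mrc1 and Cbr2 (0.221) and Pf4 and Lyve1 (0.230). With 4 libraries such a distance is a description.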

How the data were processed

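Total RNA of 4 libraries, 2 cKO and 2 control, was sequenced, with genotype and number read from each title. Per the submitters' processing notes, Bowtie2 2.2.3, TopHat2 2.0.12 and HTSeq 0.6.0 were used with mm9, in roles that the notes leave out. Gene positions in the tables were identical to GRCm38 annotation (GENCODE M21) for 90.3% of 21932 genes, so positions here are GRCm38. What the authors deposited was 4 tables, each with counts per gene of 1 cKO and 1 control library. The deposited normalized values are CPM, in which the authors set a count of 0 to 0.5 reads. A deposited column holds the fold (a ratio) of these values, and another deposited column its log2. The sources used here name neither the test behind the deposited p-value columns nor the strand setting. The authors' own columns for direction and significance gave the calls quoted from their tables.

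Counts were joined by gene ID, and 18723 genes had a count in every library. Genotypes were compared with edgeR 4.0.16 (R 4.3.3; quasi-likelihood, TMM, filterByExpr with a minimum count of 10, 2 residual degrees of freedom, two-sided, Benjamini-Hochberg at 0.05), tested on simulated data. The SE was taken from the fold change and its F statistic. Alternatives used DESeq2 1.42.0, limma-voom (limma 3.58.1), other scalings and filters, and each library left out. RPKM used the union of annotated exons. Cell type sums used CPM of genes with counts in all libraries.

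The members and lists were chosen with earlier results of these data known. All 8 members were described, with the 6 most abundant genes of 3 related lists, the sums and up to 3 of the most abundant genes of the other lists, and the 6 genes closest in pattern (pseudocount 0.5 CPM, leaving out predicted genes). Some genes that the rule names are not reported here. Xist, Mpo, Ppbp, Gp5, Flt4, Dcn, Sparc, Pxdc1, Reln, Vcan, Gp1bb, Treml1, Gp9, Gp1ba, Col3a1 and Col1a2 were named after their values were seen.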

Additional observations from a re-analysis of the deposited data

How the results depend on the processing

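No gene passed the adjusted threshold under any alternative run: DESeq2 size factors, library totals, no filter, DESeq2, limma-voom, scaling on macrophage genes, and each library left out. Unadjusted calls numbered 49, against 149 without a filter, 74 with DESeq2, 1784 without cKO 5, 583 without cKO 2 and 10 without control 6. The median log2 fold change of the 8 members, 0.46, ranged from −1.22 to 1.22 when a library was left out. Log2 fold changes with a library left out ranged from −1.36 to 1.10 for Mrc1, −0.36 to 2.31 for Pf4, −0.97 to 1.98 for Lyve1, −1.52 to 9.81 for Cd163, −0.83 to 1.33 for Ms4a7, −1.35 to 0.77 for F13a1, −1.09 to 0.87 for Cbr2 and −1.83 to 0.76 for Stab1. The upper Cd163 value is a fit against control 6 alone, which had no reads, and is no bound. F13a1 was at −0.003 without control 1. Limma-voom gave a median of 0.10 for the members, with −0.11 for Mrc1, −0.31 for F13a1 and −0.14 for Cbr2. Scaling on macrophage genes moved the median of all genes by 0.97, to 1.00, and gave 0.16 for Stab1 and a median of 0.57 for the members, both below that of all genes. The ratio of member to microglial genes, 0.67 higher in cKO, was 0.30 with all macrophage genes as denominator, 1.14 as a mean of log2 values and 0.98 without Stab1 (added after the data were seen), and 0.43 to 0.91 with a library left out, lowest without cKO 5; the cause was not tested. All 6 closest genes recurred with a pseudocount of 1 CPM or library totals, and 4 with 0.1 CPM, but 1 with the profile taken without Cd163 (added after the data were seen). No paired analysis was possible because the genotypes share no replicate number. With 46 to 59 Pf4 reads in 3 libraries and 20 Cd163 reads in cKO 2, counting error limits those values.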

Other observations

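A count of 0 beside sizeable counts elsewhere was not unique to Cd163. With at least 20 reads in each of the other libraries, 24 genes had no reads in control 6, 45 in cKO 5, 4 in control 1 and 3 in cKO 2. Cd163 is on the list for control 6, together with Dcn, the decorin gene of fibroblasts, which had 129 and 45 reads in the cKO libraries and 56 reads in control 1.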
